A study of Mus musculus with 3 samples.

Results

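Cplx2, Doc2b and Cadps2 encode 3 proteins that act on the last steps before a secretory vesicle fuses with the cell membrane. They were taken by gene name from the authors' table of sites at which PARP-1 signal differed between cocaine-treated and saline-treated mice. Each gene held 1 site, so 3 of the 1727 sites in that table are described. The table lists only sites chosen by the authors' own comparison, so the cocaine and saline values of these sites are given as a description and were not tested again.

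Mice of the C57BL/6 strain were used, and PARP-1 occupancy in their nucleus accumbens was measured by ChIP-seq, which sequences the cross-linked chromatin that an antibody pulls down. The cocaine group received cocaine by intraperitoneal injection at 20 mg/kg once a day for 7 days, and the saline group received saline on the same schedule. Both groups were killed 30 min after the last injection, and tissue from 10 mice was pooled for each ChIP replicate. No label gives age, sex or a genotype beyond the strain. The table carried 2 cocaine and 3 saline replicate values per site, although the labels state 3 per group. The series text calls these sequencing replicates and the extraction protocol biological ones, so the spread between them may be partly technical. In bulk tissue a change in the share of cells of a type and a change in signal per cell cannot be told apart. The table gives occupancy and not expression, so the tissue label could not be checked against marker genes. None of 29 glial marker genes held a listed site (0 sites), against 3.09% of 21896 protein-coding genes. A list this short can hold none at that share, so the count does not inform on cell type.

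Transmitter and peptide release depends on SNARE proteins, which draw the vesicle and the cell membrane together. Complexin-2, the product of Cplx2, is a small soluble protein that binds the assembled SNARE complex, holds it before fusion and promotes fusion when calcium enters. Doc2b encodes a protein with a pair of C2 domains that binds calcium and membrane lipids and acts as a sensor for spontaneous and delayed release. Cadps2 encodes CAPS2, which primes dense-core vesicles, the carriers of neuropeptides and growth factors. PARP-1, an enzyme of the nucleus, builds ADP-ribose chains on chromatin proteins, including histones and its own molecule.

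All 3 sites were 1000 bp long, the length of a single test window, as were 975 of the 1727 sites. Positions are given in mm9, the build named for the deposited table. The Cplx2 site lay on chromosome 13 at 54474501 to 54475500, on the plus strand gene, 1789 to 2788 bp downstream of the transcription start. The Doc2b site lay on chromosome 11 at 75609701 to 75610700, 143 to 1142 bp upstream of the start of this minus strand gene and thus outside the transcript. The Cadps2 site lay on chromosome 6 at 23364701 to 23365700, deep inside its minus strand gene. Its middle was 424 kb from the start, or 73.6% of the way along a transcript of 576 kb. The deposited table labelled the first 2 sites as promoter and the third as gene body. Of the 770 listed sites in or near genes 85 carried a promoter label, and 41 had their middle upstream of the start, as Doc2b did. Whether the Cplx2 and Cadps2 sites lie in exons or introns was not determined here.

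**Figure D1:**
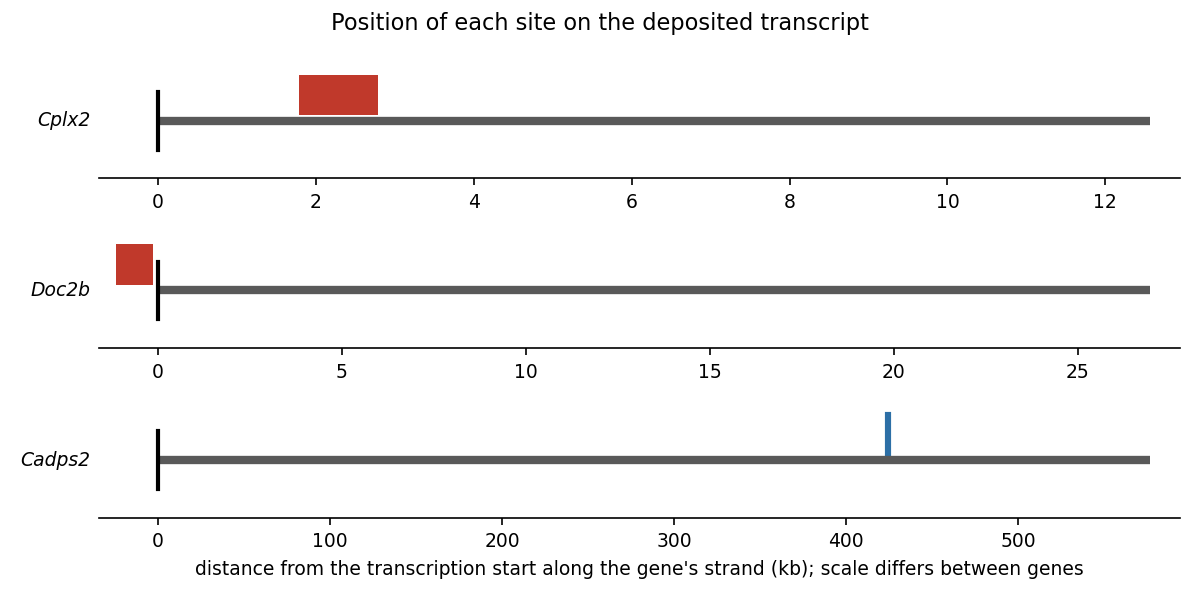
Position of each site relative to the transcription start (black tick at 0; x axes in kb along the gene's strand, with a different scale for each gene). Grey bars are the transcripts of the deposited table, red boxes sites with higher signal after cocaine and the blue mark the site with lower signal, drawn wider than scale; Doc2b's site is upstream of the start and Cadps2's site is 424 kb into the gene.

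The mm9 sequence of the sites was not used here, but reference windows of 250 bases before to 50 bases after a RefSeq start were at hand for Cplx2 and Cadps2 (GRCm38.p6). They are shown as the reference start windows of these genes. Neither is the sequence of a listed site, and that of Cplx2 may stand at another start than the one its site was placed against. Capitals mark matches on either strand to 6 motifs: TGACGTCA (cAMP response element), TGANTCA (AP-1), GGGCGG (GC box), TATAAA (a core promoter element), CACGTG (E-box) and TTCAGCACC (one end of the RE1 element). No matches overlap in these windows.
Cplx2, chr13:54302306-54302605, plus strand: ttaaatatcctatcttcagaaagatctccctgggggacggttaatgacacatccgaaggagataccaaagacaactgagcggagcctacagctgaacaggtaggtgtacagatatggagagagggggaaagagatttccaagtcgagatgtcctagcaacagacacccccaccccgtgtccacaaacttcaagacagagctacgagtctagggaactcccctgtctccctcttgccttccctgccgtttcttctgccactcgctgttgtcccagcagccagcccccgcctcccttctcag
Cadps2, chr6:23839372-23839671, minus strand: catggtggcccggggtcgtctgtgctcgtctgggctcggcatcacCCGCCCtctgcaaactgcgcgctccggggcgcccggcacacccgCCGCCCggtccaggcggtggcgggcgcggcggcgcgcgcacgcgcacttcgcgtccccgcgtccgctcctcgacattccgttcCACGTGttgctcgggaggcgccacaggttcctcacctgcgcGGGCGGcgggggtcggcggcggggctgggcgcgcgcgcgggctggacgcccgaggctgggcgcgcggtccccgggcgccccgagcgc
The Cadps2 window was rich in G and C (79.7%) and held 54 CpG dinucleotides, a ratio of observed to expected CpG of 1.13. Of the 32851 RefSeq windows of this length, 98.7% had a lower ratio. The Cplx2 window held 53.3% G and C and 9 CpG dinucleotides, a ratio of 0.43 against a median of 0.38 over all windows. The Cadps2 window held 3 matches to the GC box and 1 to the E-box. These letters occurred in 35.7% and 7.15% of all windows. None of the 6 motifs matched in the Cplx2 window (0 matches), which says only that these letters are absent from it. The Cplx2 record in RefSeq lists 4 transcript accessions, including that of the deposited table, and is several times longer than the deposited transcript. The promoter label of the Cplx2 site therefore holds for the deposited transcript.

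The Cplx2 and Doc2b sites had more PARP-1 signal after cocaine and the Cadps2 site had less, by 3.58-fold, 3.54-fold and 4.31-fold. Among all listed sites 92.9% were higher and 7.06% lower, and among those in or near genes 97.1% were higher and 2.86% lower. Of the 85 promoter sites 95.3% were higher. The direction at Cplx2 and Doc2b was thus that of nearly all listed promoter sites, and Cadps2 was 1 of 22 lower sites in or near genes.

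At the Cplx2 site the normalized read counts were 13.97 and 13.64 in the cocaine replicates and 3.19, 1.82 and 6.55 in the saline replicates. Both cocaine values lay above every saline value, and the highest saline value was under the lowest cocaine value by more than the whole saline range. The cocaine mean was 13.8 ± 0.23 (SD, n = 2) and the saline mean 3.85 ± 2.43 (SD, n = 3), a log2 ratio of 1.84. These values rested on 17 and 12 reads after cocaine and 3, 2 and 6 after saline. Scaled for depth, the ratio of the summed reads was 3.71, with an exact conditional 95% interval of 1.80 to 8.24. Such intervals hold counting error alone: amplified reads were not traced to single molecules, and the way the site was selected does not enter. Without saline replicate 3 the fold was 5.51, so that library holds much of the saline signal at this site.

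At the Doc2b site the cocaine replicates had normalized read counts of 13.14 and 15.91, and the saline replicates 2.12, 3.65 and 6.55. The groups again did not overlap, and saline replicate 3 was again the highest of the saline values. The cocaine mean was 14.5 ± 1.96 (SD, n = 2) and the saline mean 4.11 ± 2.25 (SD, n = 3), a log2 ratio of 1.82. The site held 16 and 14 reads after cocaine and 2, 4 and 6 after saline. The ratio of summed reads was 3.52 (exact conditional 95% interval 1.75 to 7.55).

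At the Cadps2 site the order was turned: the cocaine replicates had 4.93 and 2.27 normalized reads and the saline replicates 15.93, 16.41 and 14.19. Every saline value was above both cocaine values, and the saline replicates lay closer together than at the other 2 sites. Saline was the higher group here and the lower group there, so this comparison is not of like with like. Over the 122 lower sites the lowest saline mean was 13.8, and 36 of these sites lay below Cadps2 in saline mean. The cocaine mean was 3.60 ± 1.88 (SD, n = 2) and the saline mean 15.5 ± 1.17 (SD, n = 3), a log2 ratio of -2.11. The cocaine side rested on 6 and 2 reads, and the saline side on 15, 18 and 13. The ratio of summed reads, saline over cocaine, was 4.08 (exact conditional 95% interval 1.91 to 10.01). Without cocaine replicate 1 the fold was 6.83.

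The separation of the groups is no result about these genes. Over all 1727 sites 92.2% had every cocaine replicate above every saline replicate and 6.72% the opposite, 99.0% in all. Where the mean count was under 100, the higher sites had a floor: the lowest cocaine values were 13.14 (16 reads) in the first replicate and 13.64 (12 reads) in the second. Doc2b sat at the first of these minima and Cplx2 at the second, so the small cocaine SD of Cplx2 was measured at the lower edge of the list and says little about how close the replicates are.

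**Figure D2:**
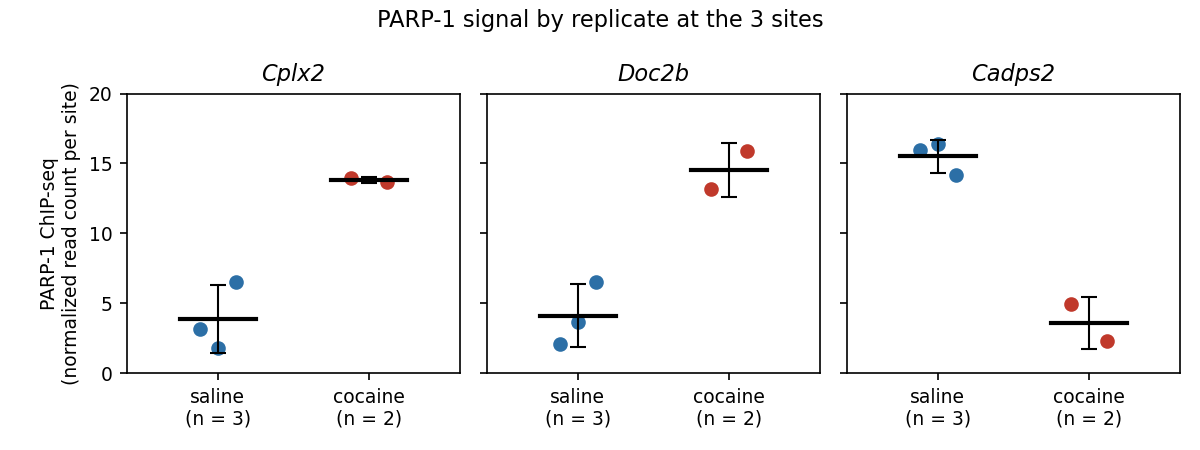
Normalized PARP-1 read counts per site (y axis) in saline (blue, n = 3) and cocaine (red, n = 2) replicates at the 3 sites; points are replicates, thick lines means and bars SD. Cocaine values are at 13.14 or above at Cplx2 and Doc2b and at 4.93 or below at Cadps2, with no overlap between groups.

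In size the changes were ordinary for the list. In the authors' deposited table the log2 fold changes were 1.84 for Cplx2, 1.82 for Doc2b and -2.11 for Cadps2. The adjusted p-values there were 0.00164, 0.00209 and 0.00162. The p-values of the strongest window were 3.98e-05, 7.05e-05 and 3.00e-05, and the largest over all listed sites was 9.95e-05. The median log2 ratio was 1.84 over the 1605 higher sites and -1.93 over the 122 lower sites. Of the higher sites 817 had a smaller ratio than Cplx2 and 757 a smaller one than Doc2b. Of the lower sites 91 had a ratio smaller in size than Cadps2. Cocaine counts were on the low side at both promoter sites, since 75 higher sites lay below Cplx2 and 303 below Doc2b.

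Cplx2 and Doc2b, nearly equal in fold, differed in enrichment over the authors' background. The deposited enrichment at Doc2b was 1.37 after saline and 4.73 after cocaine, and 1372 of 1603 higher sites with a finite value had a lower one after cocaine. Cplx2 went from 0.97 after saline, near background, to 3.37 after cocaine. The median of the higher sites after cocaine was 2.62. Cadps2 had 1.67 after saline, above the median of 1.43 over the lower sites, and 0.37 after cocaine. Its signal was thus modestly above background after saline and under it after cocaine. Dividing the deposited mean by the deposited enrichment gives the background each site was set against. It was 3.07 normalized reads at Doc2b, 4.09 at Cplx2 and 9.73 at Cadps2 for the cocaine mean, with medians of 6.15 over the higher and 12.8 over the lower sites. The saline mean gave 3.0, 3.97 and 9.29. The cocaine means of Doc2b and Cplx2 were close, at 14.5 and 13.8 normalized reads, while their backgrounds were 3.07 and 4.09. How the authors set this background is not stated in the labels, and its part in the order of the enrichments was not tested.

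**Figure D3:**
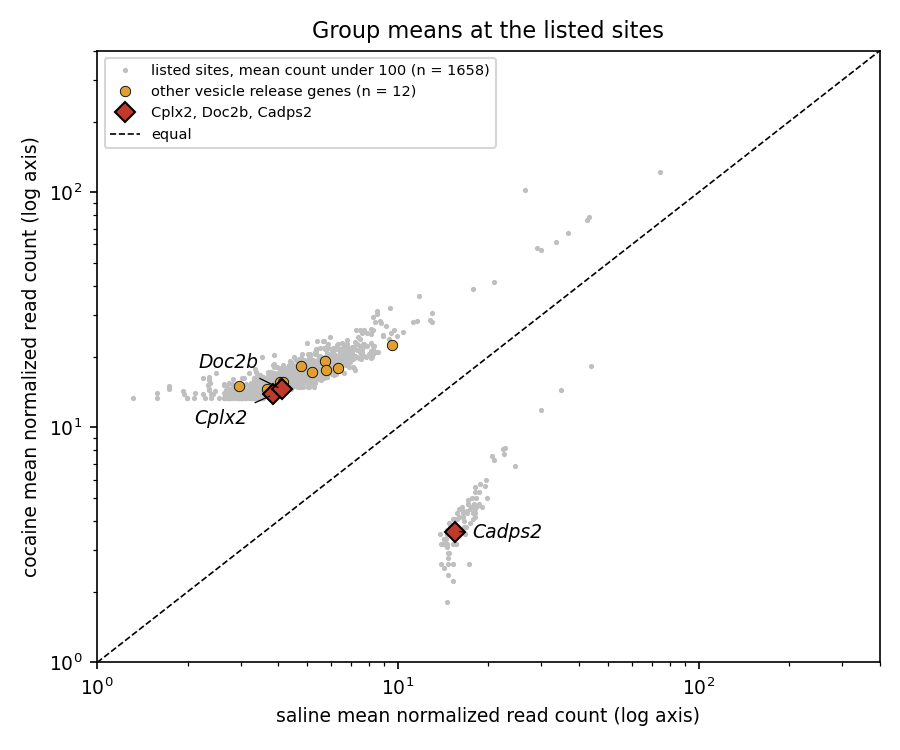
Mean normalized read count per site after saline (x) and cocaine (y), both on log axes, for the 1658 listed sites with a mean count under 100 (grey), 12 other vesicle release genes (orange) and the 3 sites (red diamonds). The dashed line marks equal counts; Cplx2 and Doc2b sit near the lower edge of the cloud above it and Cadps2 in the cloud below it.

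The wider release machinery was described with a list of 150 genes, all matched to RefSeq symbols or synonyms. Of these, 15 (10.0%) held 1 listed site each, against 3.09% of 21896 protein-coding genes. Leaving out Cplx2, Doc2b and Cadps2, which were chosen for having a site, 12 of 147 (8.16%) did. These shares were not tested, and the list was drawn up with earlier results of these data known. The 15 genes had a median length of 68.7 kb, from 10.6 to 856 kb, against 74.5 kb over the 688 genes with a site. Both of these sets hold only genes with a site. The lengths of the 150 genes were not set against those of all protein-coding genes, so the part of gene length in the shares was not tested. Cocaine gave the higher signal at 14 of these 15 sites and the lower signal at Cadps2, against 97.1% higher and 2.86% lower over all listed sites in or near genes. The direction of the list was thus close to that background. Their median log2 ratio was 1.84, against 1.82 over all listed sites. Cplx2 and Doc2b held the only 2 promoter sites of the list, and the other 13 sites lay in gene bodies.

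The nearest relatives of the 3 genes held no listed site. For the complexins Cplx1, Cplx3 and Cplx4, for Doc2a and Doc2g, and for Cadps, which encodes CAPS1, the count was 0 each. A gene without a listed site may still bind PARP-1, since the table holds only sites that passed the authors' comparison. None of the list's 17 SNARE genes and none of its 15 genes for SM proteins, tomosyns and SNARE recycling factors held a site (0 of each). Over all protein-coding genes 3.09% held one. Groups this small can hold none at that share, so these counts and those of the relatives set no gene apart. The list does not hold every gene of these families. The SNARE genes Stx6 and Stx8 and the SM protein gene Scfd1 are not on it, and each held a listed site. Their cocaine means were 15.9, 15.4 and 15.9 normalized reads, and their saline means 3.43, 5.23 and 4.83. The counts of 0 therefore hold for the genes on the list only.

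Active zone and Rab3 genes, the largest subgroup of the list, held the most sites, with 5 of 23 genes, all higher after cocaine. Over all protein-coding genes 3.09% held a site, and 97.1% of listed sites in or near genes were higher. The share of this subgroup was not tested. Bzrap1 and Rimbp2 encode RIM-binding proteins, which tie calcium channels to release sites. Bzrap1 had 14.5 ± 1.96 normalized reads in the cocaine replicates (SD, n = 2) and 3.68 ± 1.36 in the saline replicates (SD, n = 3), and Rimbp2 15.6 ± 1.17 and 4.07 ± 2.13. Rab3d and Rab27b encode small GTPases of secretory vesicles. Rab3d had 15.7 ± 3.56 after cocaine and 4.15 ± 1.36 after saline. Rab27b had the highest cocaine mean of the list, 22.5 ± 0.39, with 9.56 ± 1.36 after saline, and the smallest log2 ratio among the list's higher sites, 1.23. Erc2, the gene of an active zone scaffold protein, had 17.6 ± 0.73 and 5.77 ± 0.52 at a site 373 kb from the start of an 856 kb gene.

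Of 17 synaptotagmin genes, which encode vesicle proteins that also carry C2 domains, 2 held a site. Syt13 had the largest log2 ratio of the list, 2.34, from means of 14.9 ± 1.37 normalized reads (cocaine) and 2.95 ± 1.39 (saline). Syt7, the gene of a slow, high-affinity calcium sensor, had 13.8 ± 0.23 and 3.79 ± 0.91, close to the means at Cplx2. Among 20 synaptic vesicle genes, Sv2b, the gene of a vesicle glycoprotein, and Syn3, the gene of a synapsin, had log2 ratios of 1.94 and 1.72.

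The dense-core vesicle pathway in which CAPS2 acts held 2 further sites among 20 cargo and biogenesis genes, both higher after cocaine. This is opposite to Cadps2 but is the direction of 97.1% of listed sites in or near genes. Ptprn, the gene of a transmembrane protein of dense-core vesicles, had 14.0 ± 1.15 normalized reads after cocaine and 3.88 ± 2.76 after saline. Pam, which encodes the enzyme that amidates neuropeptides, had 19.2 ± 3.05 and 5.73 ± 1.28. Its deposited enrichment of 7.50 after cocaine was the highest of the list. Among the 22 endocytosis genes on the list only Synj2, the gene of an inositol phosphatase, held a site, with a log2 ratio of 1.50. Gak and Dennd1a, genes of clathrin-coated vesicle traffic that are not on the list, also held listed sites, all higher after cocaine.

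**Figure D4:**
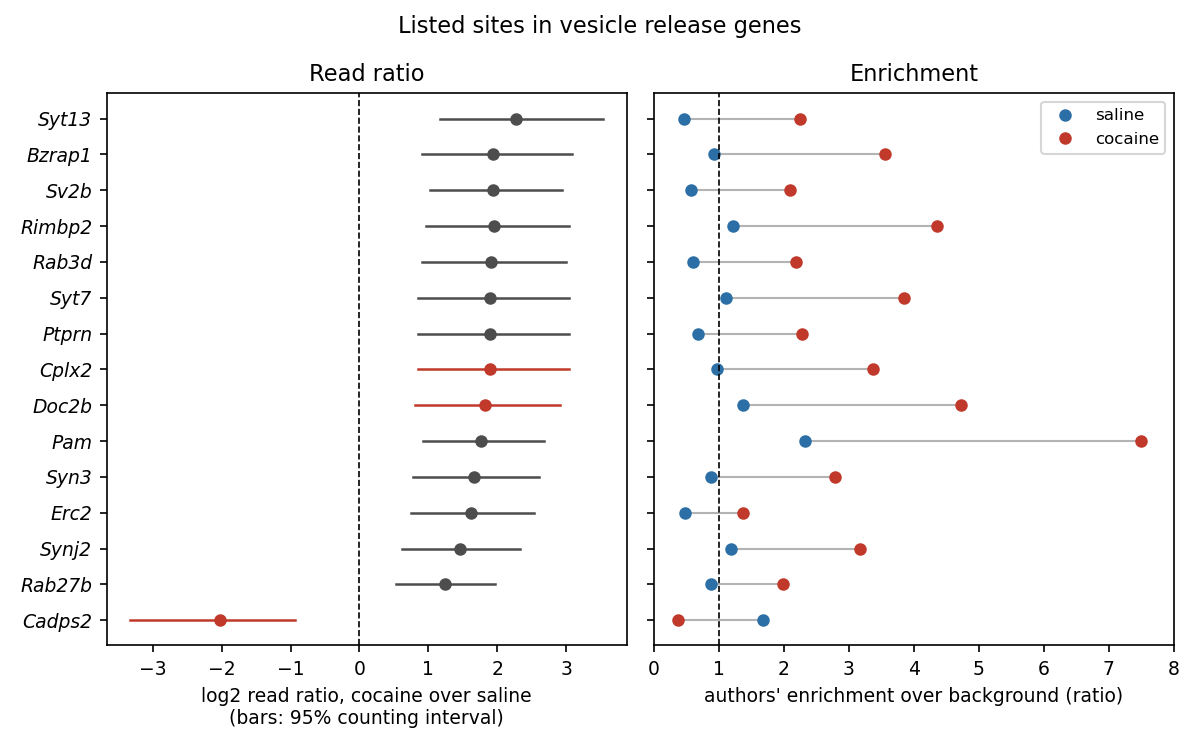
Left, log2 ratio of depth-scaled reads, cocaine over saline, at the 15 sites of vesicle release genes, with exact 95% counting intervals as bars (Cplx2, Doc2b and Cadps2 in red). Right, the authors' enrichment over background after saline (blue) and cocaine (red), with a dashed line at 1; Cadps2 alone lies left of 0 and goes from 1.67 after saline to 0.37 after cocaine.

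Cadps2 resembled other lower sites in gene bodies. Of the 22 lower sites in or near genes 18 lay in gene bodies, at a median of 133 kb from the start, and 5 of the 18 lay farther in than Cadps2. A more negative log2 ratio was found at 4 of the 18. By distance over the 5 replicate values on the log2(value + 1) scale, the genic sites most like it were in Gpr98, an adhesion receptor gene (distance 0.30), and Thsd7b (0.41). For Doc2b they were in Ctnna3, a catenin gene (0.08), and Disc1 (0.12), and for Cplx2 in Celsr2, a cadherin-family gene, and Aknad1 (0.24 each). Cplx2 and Doc2b were 0.87 apart, and each was over 4 units from Cadps2 (4.29 and 4.22). One further listed site, outside genes, had the same 5 counts as Doc2b. At such low counts many sites share nearly the same values, so this likeness is a description of the counts.

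The chromosome around each site differed. The Cadps2 site had its next listed sites 4.86 Mb before and 5.18 Mb after it. Both of those were higher after cocaine, with log2 ratios of 1.63 and 1.76. Gaps over the whole list were not computed, so whether such distances are unusual is not known here. The closest neighbour of the Cplx2 site was a gene body site in Rnf44 304 kb away, where the cocaine mean was 15.8 and the saline mean 4.39 normalized reads. The next listed site to Doc2b lay 175 kb away outside the annotated genes and had a log2 ratio of 2.16. In the RefSeq gene order Doc2b is next to Rph3al, which encodes a Rab effector of exocytosis and which held 0 listed sites.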

How the data were processed

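PARP-1 ChIP-seq libraries came from mouse nucleus accumbens. The submitters' processing notes name mm9 and CASAVA 1.8.2, and the deposited table's name gives diffReps and a negative binomial test. For the aligner, duplicate handling and site threshold: not given in the sources used here. Treatment columns were taken as cocaine and control columns as saline, from the table's name and the series text. The 2 cocaine values are not tied to particular replicates, so replicate numbers give the order in the table only.

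The deposited columns hold a signal (each group's mean of normalized reads), a ratio over background (enrichment) and a fold change on the log2 scale, per the file headers. The p-value columns are the authors' own and were deposited with the table. Dividing by 1 factor per library turned 100.0% of the replicate values into whole reads (tolerance 0.1 read). A read was worth 0.821 to 1.14, and the shallowest library had 72.3% of the depth of the deepest. Total depth is not stated.

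Means, SDs, ratios and exact conditional intervals were computed with Python 3.11.15 and scipy 1.17.1, and checked on simulated reads. No test was run, because the sites were selected on the same contrast. Members, gene lists and the naming rule were chosen with earlier results of these data known. The rule named the 3 genes, their paralogs, up to 12 further list genes with a site by the authors' adjusted p, and the 2 most similar genic sites per member. RefSeq matched 687 of the 688 gene names. The alternatives tried were a pseudocount of 1, other library scalings, the strongest window, stricter site sets and leaving out each replicate. The input DNA sample was not analysed here.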

Additional observations from a re-analysis of the deposited data

How the results depend on the processing

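The direction at each of the 3 sites held under the other scalings, the pseudocount, the strongest window and each run without 1 replicate. Leaving out each replicate in turn, the log2 ratio of cocaine over saline ranged from 1.50 to 2.46 at Cplx2, from 1.51 to 2.33 at Doc2b and from -2.77 to -1.65 at Cadps2. Other scalings, the strongest window and a pseudocount of 1 moved each ratio by less than the spread between replicates. With no scaling the median log2 ratio over all sites was 1.91, and with scaling on the sites of high count (a mean of at least 100) 1.80, against 1.82. In the vesicle release list 14 sites were higher in each leave-one-out run and without sites of high count. At an authors' adjusted p under 0.001, 3 higher sites (Syt13, Sv2b and Pam) and 0 lower sites were left, so Cplx2, Doc2b and Cadps2 all dropped out. Promoter sites alone left 2 higher sites, Cplx2 and Doc2b, without Cadps2. No paired analysis was possible because the replicate columns carry no numbers and the groups differ in size. Depth limits each value: the lower group of each site rested on 2 to 6 reads per replicate.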
